A study of Mus musculus with 6 samples.

Results

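The fibrillar collagen genes of the mouse were described in bulk RNA-Seq of the thoracic aorta. They were chosen by name as the 10 genes Col1a1, Col1a2, Col2a1, Col3a1, Col5a1, Col5a2, Col5a3, Col11a1, Col24a1 and Col27a1, of 52636 genes in the deposited count table, and all 10 were found in it. The study asked how loss of TGF-β receptors in smooth muscle cells of adult mice alters the aortic wall, including its extracellular matrix. The 4 control libraries (WT) came from C57BL/6J mice that received no treatment. The 2 knockout libraries (KO, Tgfbr1/2iSMCKO) came from mice with loxP-flanked alleles of both receptors (Tgfbr1f/f and Tgfbr2f/f), the Myh11-CreERT2 transgene and mT/mG. They were injected intraperitoneally with tamoxifen on 5 days, at a daily dose of 2 mg, beginning at 11 weeks. All mice were 12 weeks of age. The Myh11 promoter limits Cre to smooth muscle cells, so fibroblasts, endothelium and other cells of the wall keep both receptor genes, and mT/mG is a fluorescent reporter of Cre activity. The WT mice carried no Cre, no loxP-flanked allele and no reporter and received no tamoxifen, so receptor loss, tamoxifen, the transgenes and strain background cannot be told apart in this comparison. Each library is one column of the count table, and the columns were matched to libraries from their short codes and not from full sample titles, so the group of each column rests on that reading.

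Fibrillar collagens are triple-helical proteins that pack side by side into the banded fibrils that carry tension in tissues. In the arterial wall type I collagen (chains from Col1a1 and Col1a2) and type III collagen (Col3a1) form the bulk of the fibrils. Type V collagen (Col5a1, Col5a2 and, in some trimers, Col5a3) is built into the same fibrils in small amounts, where it helps to start them and limits their width. Types II (Col2a1) and XI (Col11a1) are the corresponding fibril formers of cartilage, and types XXIV (Col24a1) and XXVII (Col27a1) are less abundant relatives best known from the skeleton. In people, mutations in COL3A1 and COL5A1 cause the vascular and classical forms of Ehlers-Danlos syndrome, and TGF-β signalling is a well-known inducer of collagen genes.

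The upstream sequences of Col3a1 and Col5a1, a pair of members whose KO and WT libraries did not overlap, in opposite directions, and of Col11a1, which rose from near 0, are shown to give the reader the regulatory context. Of the 10 genes, 7 had an upstream sequence in the RefSeq promoter table on GRCm38.p6. Each window is the 250 bases before the annotated start, 5′ to 3′ on the gene's own strand. Capitals mark matches on either strand to CCAAT (the CCAAT box), TATAAA (the TATA box), GGGCGG (the GC box) and CAGACA (a Smad-type motif). No match shown overlaps another.
Col3a1, chr1:45311288-45311537, plus strand: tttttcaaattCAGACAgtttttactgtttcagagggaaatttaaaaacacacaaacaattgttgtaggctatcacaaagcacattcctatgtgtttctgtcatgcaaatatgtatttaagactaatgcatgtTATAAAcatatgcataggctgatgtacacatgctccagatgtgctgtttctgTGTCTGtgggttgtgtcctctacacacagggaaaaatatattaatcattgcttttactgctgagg
Col5a1, chr2:27886175-27886424, plus strand: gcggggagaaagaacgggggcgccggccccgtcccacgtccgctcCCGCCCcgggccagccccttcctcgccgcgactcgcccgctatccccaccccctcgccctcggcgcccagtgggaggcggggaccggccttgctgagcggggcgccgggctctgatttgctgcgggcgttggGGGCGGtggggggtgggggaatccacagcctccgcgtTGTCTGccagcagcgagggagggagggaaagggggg
Col11a1, chr3:114030290-114030539, plus strand: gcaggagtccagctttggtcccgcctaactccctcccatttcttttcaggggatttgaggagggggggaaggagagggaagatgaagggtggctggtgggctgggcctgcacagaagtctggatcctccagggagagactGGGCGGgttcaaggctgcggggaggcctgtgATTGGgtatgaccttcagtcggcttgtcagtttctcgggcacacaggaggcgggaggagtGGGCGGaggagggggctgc

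The Col3a1 window was poor in G and C, at 35.2%, and held 1 match to TATAAA and 2 to CAGACA. The Col5a1 window was rich in G and C, at 76.4%, and held no TATAAA, 2 matches to GGGCGG and 1 to CAGACA. The Col11a1 window held 1 match to CCAAT and 2 to GGGCGG. Among 27025 windows of the same length in the table, CCAAT occurred in 34.5%, TATAAA in 13%, GGGCGG in 32.9% and CAGACA in 17.1%. A match to letters of this kind is common and does not show that a factor binds there.

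In WT aorta the members spanned more than 4 orders of magnitude. To compare genes, counts were divided by DESeq2 size factors (normalised counts) and then by the gene's length in kilobases. On the union of all annotated exons, Col1a1 stood highest at 11509 ± 1244 normalised counts per kb (mean ± SD, n = 4), followed by Col3a1 at 7889 ± 225 and Col1a2 at 7115 ± 384. Col5a1 followed at 2550 ± 132 and Col5a2 at 1365 ± 76.9. The order of the 3 leading genes depended on the length used. The union of exons is long for Col1a2, at 12426 bases, whereas its longest protein-coding transcript is 5348 bases. Per kb of that transcript, Col1a2 led at 16532 ± 892, before Col3a1 at 13917 ± 397 and Col1a1 at 12737 ± 1377. Col3a1 and its lower neighbour overlapped in level among the WT libraries on both lengths. Col5a1 and Col5a2 kept their places below those genes on both lengths, without overlap with each other.

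Far below these came Col27a1, at 97.4 ± 16.6 normalised counts per kb of exon, and Col5a3 at 48.7 ± 26.9, and their ranges overlapped on exon length. The 3 remaining genes were at or near the limit of detection, with at most 25 counts in any WT library for Col2a1, 10 for Col11a1 and 11 for Col24a1. Among 52489 genes ranked by level per kb of exon in each library, Col1a1 stood between rank 47 and 57 in WT and between 40 and 42 in KO. Col5a2 stood between 629 and 721 in WT and between 872 and 1042 in KO, and Col5a1 between 314 and 352 in WT and between 378 and 455 in KO.

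**Figure D1:**
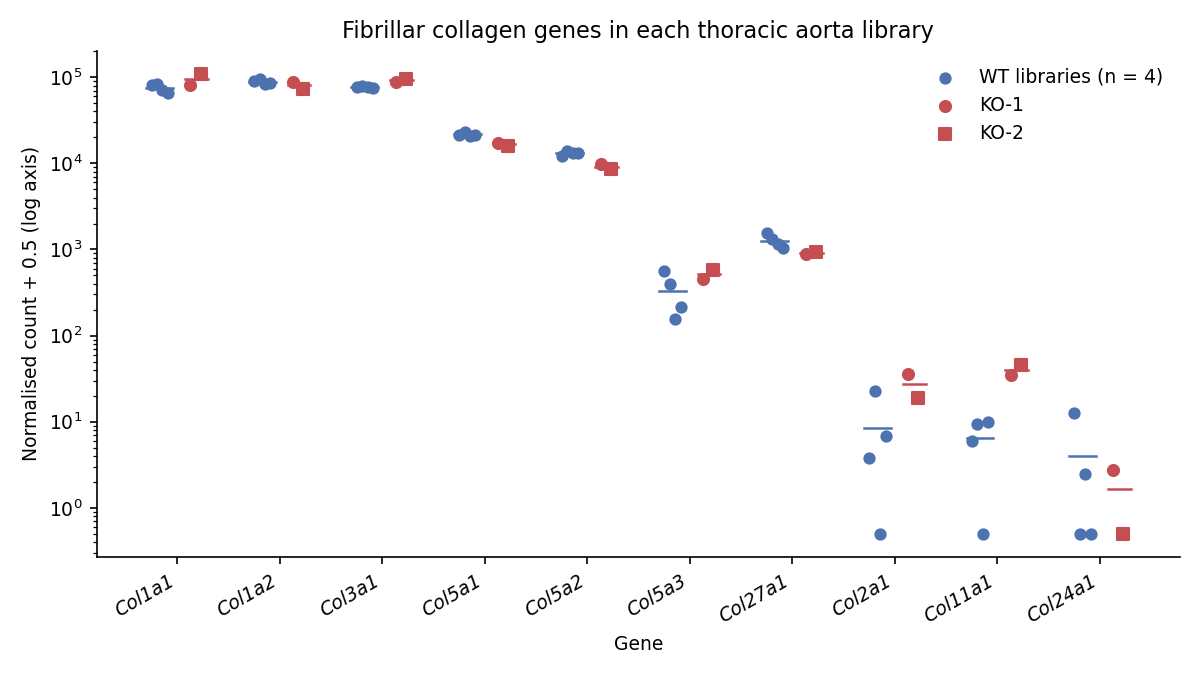
Normalised counts of the 10 fibrillar collagen genes in each library, with 0.5 added so that counts of 0 can be drawn on the log axis. Circles in blue are the 4 WT libraries, the red circle is KO-1, the red square is KO-2, and lines are group means; the KO points lie below every WT point for Col5a1, Col5a2 and Col27a1 and above every WT point for Col3a1 and Col11a1.

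Total counts ranged from 19650983 to 28860598 per library, so counting error is small for the 7 abundant members and large for the other 3. Tgfbr1 and Tgfbr2 did not pass the threshold (DESeq2 adjusted p = 0.63 and 0.838). Tgfbr1 had 3858 to 5420 normalised counts in WT and 5780 and 4568 in KO, and Tgfbr2 had 5327 to 7042 in WT and 5784 and 5937 in KO. Reads of undeleted exons and of Cre-negative cells are part of these values, so they are no check on the labels. The tissue carried high smooth muscle markers in every library, and KO-2 had 11.71% of its counts in mitochondrial genes against 2.62% to 4.44% in WT and 3.38% in KO-1. Nothing in the labels says whether any of the libraries share a litter or preparation day, and p-values measure the spread between these 6 libraries only.

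The question was then which fibrillar collagen genes differed between KO and WT. Of the 10 genes, 9 received an adjusted p-value in DESeq2 and 2 passed 0.05, Col5a2 (lower in KO) and Col11a1 (higher in KO). Among all 17070 genes with an adjusted p-value, 10.4% passed, 4.69% lower and 5.71% higher. Nothing is read from 2 of 9 genes about the family as a whole. Only Col11a1 also exceeded a 2-fold change, as 5.64% of all genes did. The KO and WT libraries did not overlap for 5 of the 9 genes, 3 lower and 2 higher in KO, beside 34.3% of all genes. The median log2 fold change of the 9 genes was 0.25, and that of all genes tested was 0.01. In whole tissue, fewer cells of a type and less RNA per cell cannot be told apart.

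Col5a2, which encodes the second chain of the common type V trimer (chr1:45374321-45503282, minus strand, GRCm38), was lower in KO. It had 12089, 13858, 13288 and 13145 normalised counts in the WT libraries and 9692 and 8650 in the KO libraries. Every WT library lay above both KO libraries, and KO-2 was the lowest of all. The log2 fold change was -0.51 (SE 0.15), or 0.70-fold, with a DESeq2 adjusted p of 0.0111. The change held on the same side of the threshold in edgeR's quasi-likelihood test with its low-count filter (adjusted p = 0.0424) and after a trend of counts with GC content was taken out (log2 -0.53, adjusted p = 0.00161). It did not pass in edgeR without a low-count filter (log2 -0.51, adjusted p = 0.0707), without KO-2 (log2 -0.42, DESeq2 adjusted p = 0.0821) or when libraries were scaled by total counts (adjusted p = 0.066).

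Col5a1, the other chain of that trimer (chr2:27886425-28039514), moved with Col5a2 in direction but did not pass the threshold. It had 21101, 23245, 20692 and 21569 normalised counts in WT and 17351 and 15795 in KO. The groups did not overlap, and again KO-2 was the lowest. The log2 fold change was -0.39 (95% interval -0.67 to -0.10) with a DESeq2 adjusted p of 0.0729. With the GC trend taken out it was -0.16 (adjusted p = 0.574), whereas it passed without KO-1 (log2 -0.45, adjusted p = 0.0214) and after genes with a mean count under 10 were dropped (adjusted p = 0.0305). The third chain, Col5a3, was variable among WT mice, with 561, 393, 156 and 216 normalised counts, and had 459 and 581 in KO (log2 0.65, SE 0.41, adjusted p = 0.371). Its groups overlapped, so no change was detectable.

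Col3a1, the type III chain (chr1:45311538-45349706, plus strand), went the other way in size but did not pass. It had 77886, 79959, 77295 and 74598 normalised counts in WT and 88849 and 94995 in KO. Both KO libraries exceeded all WT libraries, which lay within a narrow band. The change on the log2 scale was 0.25 (95% interval -0.03 to 0.52, adjusted p = 0.288), so the interval leaves out a 2-fold change in either direction. Col3a1 and Col5a2 are neighbours on chromosome 1, with 24.6 kb between them, and point toward each other. The count table therefore gave a lower and a higher KO value for adjacent genes on opposite strands. Whether counting used strand is not stated, but the annotated exons of these genes do not overlap each other. Col3a1 shares 141 exon bases, 1.44% of its exon length, with a small RNA gene on the same strand.

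The type I chains did not pass the threshold and did not move as a pair. Col1a1 (chr11:94936224-94953042) had 80932, 83495, 71859 and 65840 normalised counts in WT and 81715 and 109539 in KO. KO-1 lay within the WT range and only KO-2 lay above it. The log2 fold change of Col1a1 was 0.34 (95% interval -0.03 to 0.71, adjusted p = 0.274). It passed when the GC trend was taken out (log2 0.59, adjusted p = 0.00652) or KO-1 was left out (log2 0.54, adjusted p = 0.0332), and without KO-2 it was 0.12 (adjusted p = 0.798). Col1a1 is among the richer members in G and C, at 58.9% of the bases of its longest annotated transcript against 49.6% for Col5a2.

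Col1a2 (chr6:4504814-4541544) had 89205, 94549, 83223 and 86674 normalised counts in WT and 88056 and 73735 in KO. KO-1 lay within the WT range and KO-2 lay below it, on the other side from Col1a1 in the same library. Its log2 difference was -0.13 (95% interval -0.43 to 0.18, adjusted p = 0.705), and it turned to 0.01 without KO-2 and to 0.03 with the GC trend taken out. Direction of change is therefore not given for Col1a2.

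**Figure D2:**
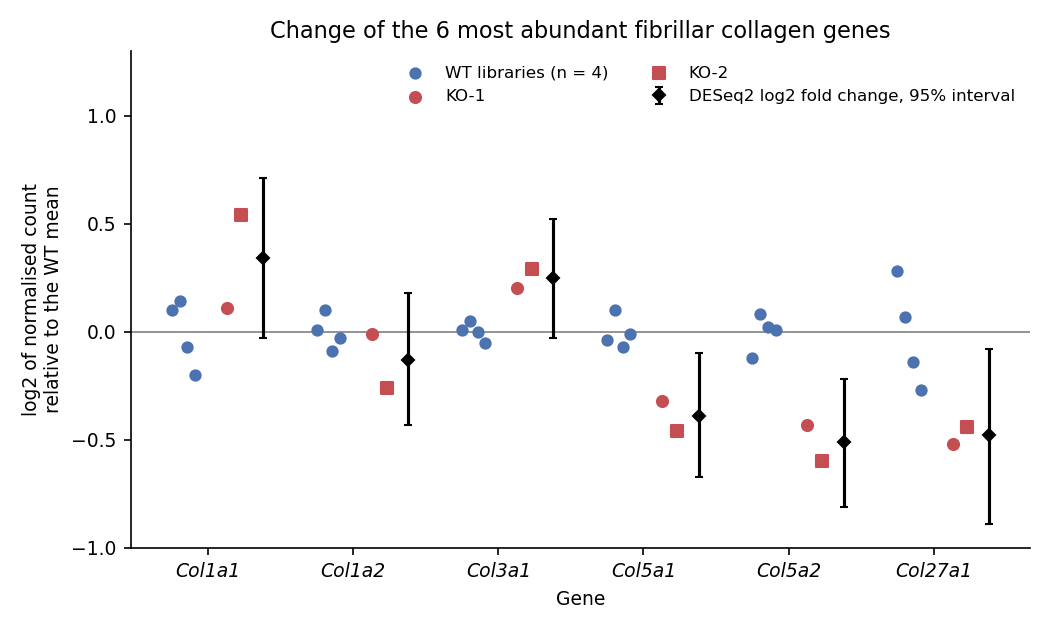
Normalised count of each library relative to the WT mean (log2) for the 6 members with the highest counts, with the DESeq2 log2 fold change and its 95% interval as black diamonds. KO-1 (red circle) and KO-2 (red square) both lie under the WT libraries for Col5a1, Col5a2 and Col27a1, both lie above them for Col3a1, and stand apart from each other for Col1a1 and Col1a2.

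Col27a1, a collagen with a shortened triple helix that is known from cartilage, was measured well at low level. It had 1542, 1332, 1150 and 1050 normalised counts in WT and 884 and 933 in KO. All KO values lay under all WT values, but the WT values themselves varied by more than the gap between the groups. In DESeq2 its log2 fold change was -0.48 (95% interval -0.89 to -0.08) with a DESeq2 adjusted p of 0.127, and -0.21 with the GC trend taken out.

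Col11a1 rose from a level near 0. The raw counts were 5, 10, 0 and 9 in WT and 45 and 37 in KO. The normalised counts were 5.49, 8.98, 0 and 9.4 in WT and 34.1 and 45.5 in KO. Both KO libraries stood above the highest WT library, on few counts for libraries of this depth. The log2 fold change was 2.73 (SE 0.92), with a DESeq2 adjusted p of 0.0336. It did not pass in edgeR (adjusted p = 0.0898), nor without WT-1 (log2 2.69, adjusted p = 0.104), WT-2 (3.01, 0.0643), KO-1 (2.93, 0.165) or KO-2 (2.52, 0.361), and its level in KO remained under 4 normalised counts per kb of exon.

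Col2a1, the type II chain, had raw counts of 3, 25, 0 and 6 in WT and 47 and 15 in KO. The KO libraries overlapped WT-2, and no change was detectable at this depth (log2 1.75, SE 1.16, adjusted p = 0.395). Col24a1 had 11, 0, 2 and 0 counts in WT and 3 and 0 in KO, with no adjusted p-value. Both KO libraries were at or under the 3 counts that a count of 0 allows, so no fold is given. Of the cartilage markers, Col9a2 and Matn1 were at 0 in every library, and none of Col9a1, Col9a3 and Cnmd reached 30 counts. Matn3 had 3.3 to 11.5 normalised counts in WT and 22.8 and 17.2 in KO, Sox9 had 185 to 262 and 254 and 498, and Hapln1 had 104 to 236 and 81.2 and 113, and none of these passed the threshold (adjusted p = 0.407, 0.112 and 0.225). Acan, the large cartilage proteoglycan that is also made in the aortic wall, was lower in KO, with 1690, 1688, 2254 and 1829 normalised counts in WT and 351 and 360 in KO (log2 -2.39, adjusted p = 1.13e-30). Chad, which encodes the collagen-binding protein chondroadherin, was higher, with 19.8 to 83.5 in WT and 486 and 1712 in KO (log2 4.40, adjusted p = 7.35e-06). Of the bone markers Bglap was at 0 in every library, Dmp1 reached at most 11 counts, and 0 of 6 tested passed in DESeq2 while 1 of them, Alpl, had an unadjusted p under 0.05 and edgeR called 0. The part of other cell types in the Col11a1 difference was not tested.

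The total of fibrillar collagen transcripts differed little between the groups. Together the 10 genes took 1.118% (95% Wilson interval 1.114% to 1.122%) to 1.281% (1.277% to 1.286%) of the counts in the WT libraries, 1.311% (1.307% to 1.315%) in KO-1 and 1.260% (1.255% to 1.265%) in KO-2. These intervals cover counting error only. Summed per kb of exon, the level was 31394, 32823, 29455 and 28632 in WT and 31785 and 35227 in KO. KO-1 lay within the WT range, KO-2 above it, and the mean log2 difference was 0.13. With the GC trend taken out the difference was 0.30.

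The type V part of that total was lower in both KO libraries. Per kb of exon, type V transcripts were 12.2%, 12.9%, 13.1% and 13.8% of the total in WT and 9.82% and 8.08% in KO. The groups did not overlap. Type III transcripts were 24.8% to 26.7% in WT and 28.5% and 27.5% in KO, and type I transcripts 59.4% to 62.1% in WT and 61.5% and 64.2% in KO. On the length of the longest coding transcript, type V made up 9.61% ± 0.434 of the total in WT and 7.21% and 6.22% in KO.

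Ratios of 2 genes within a library do not depend on how libraries are scaled, and 8 ratios of chains that share a trimer or a fibril were compared. With 4 against 2 libraries the exact permutation test (two-sided, over libraries) cannot give a p below 0.0667, so none could pass 0.05, and the adjusted p over the 8 ratios was 0.107 at best. The ratio of Col5a2 to Col3a1, per kb of exon, was 0.159, 0.177, 0.176 and 0.18 in WT and 0.112 and 0.0932 in KO. Both KO libraries lay well under the WT range, 41% lower on average (log2 -0.76, exact p = 0.0667). The ratio of Col5a1 to Col1a1 was 0.202, 0.215, 0.223 and 0.253 in WT and 0.164 and 0.111 in KO (log2 -0.72, exact p = 0.0667). The ratio of Col5a2 to Col1a2 was 0.176 to 0.207 in WT and 0.143 and 0.152 in KO (log2 -0.38, exact p = 0.0667). Col5a1 and Col5a2 were therefore lower in both KO libraries relative to the type I or III chain compared, in each of these 3 ratios. The third type V chain, Col5a3, is not part of these ratios.

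Within type V the proportion of the 2 main chains differed less between the groups. The ratio of Col5a1 to Col5a2 was 1.97, 1.89, 1.76 and 1.85 in WT and 2.02 and 2.06 in KO. Both KO libraries lay just above the WT range, a log2 difference of 0.13 (exact permutation p = 0.133). It was 0.37 with the GC trend taken out. The ratio of Col5a3 to Col5a1 varied from 0.00939 to 0.0332 in WT and was 0.033 and 0.0459 in KO, with overlap (exact permutation p = 0.2).

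The ratio of the type I chains stood highest in KO-2. The ratio of Col1a1 to Col1a2 per kb of exon was 1.72, 1.67, 1.63 and 1.44 in WT, 1.76 in KO-1 and 2.81 in KO-2. KO-1 lay just above the WT range and KO-2 far above it, so the mean log2 difference of 0.46 (exact permutation p = 0.0667) fell to 0.12 without KO-2 and was 0.80 without KO-1. Per kb of the longest coding transcript the same ratio was 0.685 to 0.818 in WT, 0.837 in KO-1 and 1.34 in KO-2. The ratio of Col3a1 to Col1a2 showed the same order, at 1.07 to 1.18 in WT, 1.28 in KO-1 and 1.63 in KO-2 (log2 0.38, exact permutation p = 0.0667). The ratio of Col3a1 to Col1a1 overlapped between the groups (log2 -0.08, exact permutation p = 0.533). KO-2 is the library with the high mitochondrial share, and the part of that in the type I ratio was not tested.

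**Figure D3:**
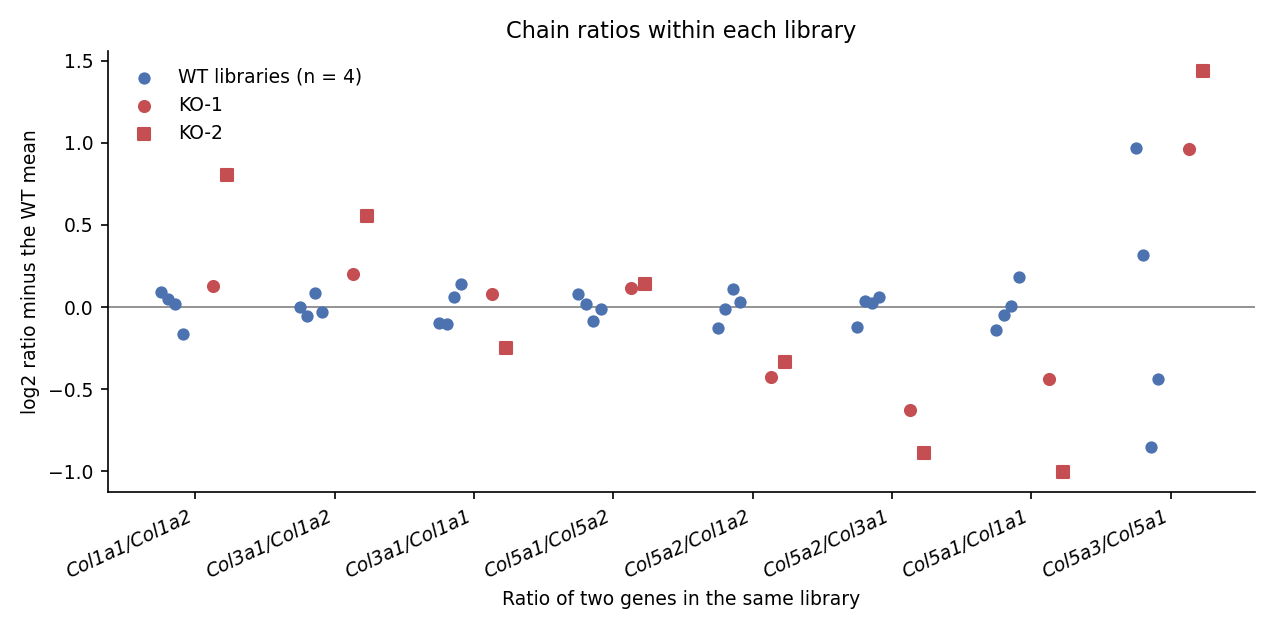
Ratios of 2 fibrillar collagen genes within each library, as the log2 ratio of normalised counts per kb of exon less the mean of the 4 WT libraries. Both KO libraries lie below WT for Col5a2/Col1a2, Col5a2/Col3a1 and Col5a1/Col1a1, and KO-2 stands above KO-1 and WT for Col1a1/Col1a2 and Col3a1/Col1a2.

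Likeness over the 6 libraries (Pearson's r of log2 CPM, TMM-scaled counts relative to library size, among 11437 genes averaging 100 or more normalised counts) was used to name the genes most like a pair of members. For Col5a2 these were Usp49, Chst3, Galnt2, Ncald and Med26, with r between 0.990 and 0.994. Of these, Usp49 (log2 -2.05), Chst3 (-0.96), Galnt2 (-0.73) and Ncald (-1.0) were lower in KO and past the threshold, and Med26 had a log2 fold change of -0.46. For Col1a1 the most alike were Vegfb, Commd1, Matr3, Cib2 and Sdhb, with r between 0.988 and 0.994. All of these were highest in KO-2, and none passed the threshold, with adjusted p-values from 0.15 to 0.248. The 6 points share 2 groups of libraries, so r is given only as a description. Col5a2 itself differed between KO and WT, so genes picked for likeness to it tend to share its direction. Their calls are therefore no separate result.

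Collagen chains need many other proteins to become fibrils, and 65 genes in 6 lists were counted in the same comparison. Of these, 62 had an adjusted p-value, and 19 passed, 12 lower and 7 higher in KO, and 6 of them by more than 2-fold. Among all genes tested 10.4% passed, 4.69% lower and 5.71% higher, and 5.64% passed by more than 2-fold. Over genes that averaged 10 or more normalised counts, the median log2 fold change was -0.06, beside 0.02 for all genes. These lists describe the steps and give no test of a pathway.

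Enzymes that modify and fold the chains in the endoplasmic reticulum numbered 20 tested, of which 5 passed lower and 1 higher, beside 4.69% lower and 5.71% higher of all genes (median -0.30). P3h2, a prolyl 3-hydroxylase, fell from 2179, 2698, 2426 and 2499 normalised counts in WT to 1166 and 1184 in KO (log2 -1.06, SE 0.17, adjusted p = 3.1e-08). Colgalt1, which adds galactose to hydroxylysine, had 4061 to 4609 in WT and 2905 and 2630 in KO (log2 -0.63). Fkbp10, a chaperone of procollagen, had 3752 to 4396 in WT and 2697 and 2901 in KO (log2 -0.56).

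P3h4, a partner of lysyl hydroxylase, had 1247 to 1624 normalised counts in WT and 1119 and 663 in KO (log2 -0.70). Plod2, the lysyl hydroxylase that acts on the ends of the chains, had 3900 to 4186 in WT and 2598 and 3263 in KO (log2 -0.47). The 1 gene of this list that passed the adjusted p and was higher was P4ha3, a minor prolyl 4-hydroxylase subunit, from 7.69 to 18.8 in WT to 56.1 and 140 in KO (log2 2.78, SE 0.58, adjusted p = 8.31e-05). Colgalt2, a relative of Colgalt1, had 4.49 to 7.31 in WT and 18.2 and 25.8 in KO and did not pass (log2 1.86, adjusted p = 0.161). It is named here after its values were seen, as are Matn3, Sox9, Hapln1 and the cardiac markers.

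The enzymes that remove the ends of procollagen moved both ways. Of 7 tested, 2 passed lower and 1 higher, beside 4.69% lower and 5.71% higher of all genes. Adamts14 had 335, 278, 173 and 202 normalised counts in WT and 103 and 84.8 in KO (log2 -1.39, SE 0.34, adjusted p = 0.00106). Bmp1, which cleaves the carboxy-terminal propeptide and also cuts chains of type V collagen, had 4156 to 5383 in WT and 3466 and 3002 in KO (log2 -0.56). Adamts2, the main amino-terminal procollagen protease, was higher, with 7628 to 8648 in WT and 12310 and 10587 in KO (log2 0.52). Of the 5 lysyl oxidases, which cross-link fibrils, Lox was higher (4826 to 5358 in WT, 8050 and 6521 in KO, log2 0.50) and Loxl3 was lower (2316 to 2760 in WT, 1744 and 1733 in KO, log2 -0.53). The paper reports Lox, with Col1a2, Col3a1 and Bgn, as lower in isolated smooth muscle cells that carried the Cre reporter signal. The values here are of whole tissue, so the measurements are not of the same material.

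On the fibril surface 3 genes of 13 passed lower and 3 higher, beside 4.69% lower and 5.71% higher of all genes. Tnxb, tenascin-X, a glycoprotein that spaces fibrils, had 15217, 15816, 12890 and 14786 normalised counts in WT and 8050 and 5135 in KO (log2 -1.15, SE 0.21, adjusted p = 2.13e-06). Fn1, fibronectin, on which cells start collagen fibrils, had 52164 to 63223 in WT and 33144 and 37469 in KO (log2 -0.75, SE 0.16, adjusted p = 0.000115). Bgn, the proteoglycan biglycan, had 159244 to 195833 in WT and 74905 and 141525 in KO (log2 -0.70).

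The surface genes that rose were Lum, Ogn and Col12a1. Lum, lumican, had 2176 to 3088 normalised counts in WT and 5433 and 5035 in KO (log2 1.0, SE 0.19, adjusted p = 4.72e-06). Ogn, osteoglycin, had 19558 to 26510 in WT and 42520 and 42014 in KO (log2 0.90). Col12a1, a collagen that lies on the fibril surface, had 161, 326, 397 and 510 in WT and 1172 and 874 in KO (log2 1.55, SE 0.36, adjusted p = 0.000457). Lum and Ogn are made mainly by fibroblasts.

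Among the 9 receptors of fibrils, 1 passed lower and 1 higher, beside 4.69% lower and 5.71% higher of all genes. Ddr1, a tyrosine kinase that binds collagen, fell from 2326 to 2455 normalised counts in WT to 1520 and 1487 in KO (log2 -0.67, SE 0.15, DESeq2 adjusted p = 0.000279). Itga2, the integrin α2 subunit, rose from 18.7 to 36.9 in WT to 78.2 and 162 in KO (log2 1.94). None of the 8 tested genes for breakdown of fibrils, collagenases and their inhibitors among them, passed in DESeq2, beside 10.4% of all genes. Of the 8, 1 gene, Timp3, had an unadjusted p under 0.05 in DESeq2, and edgeR called 0.

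**Figure D4:**
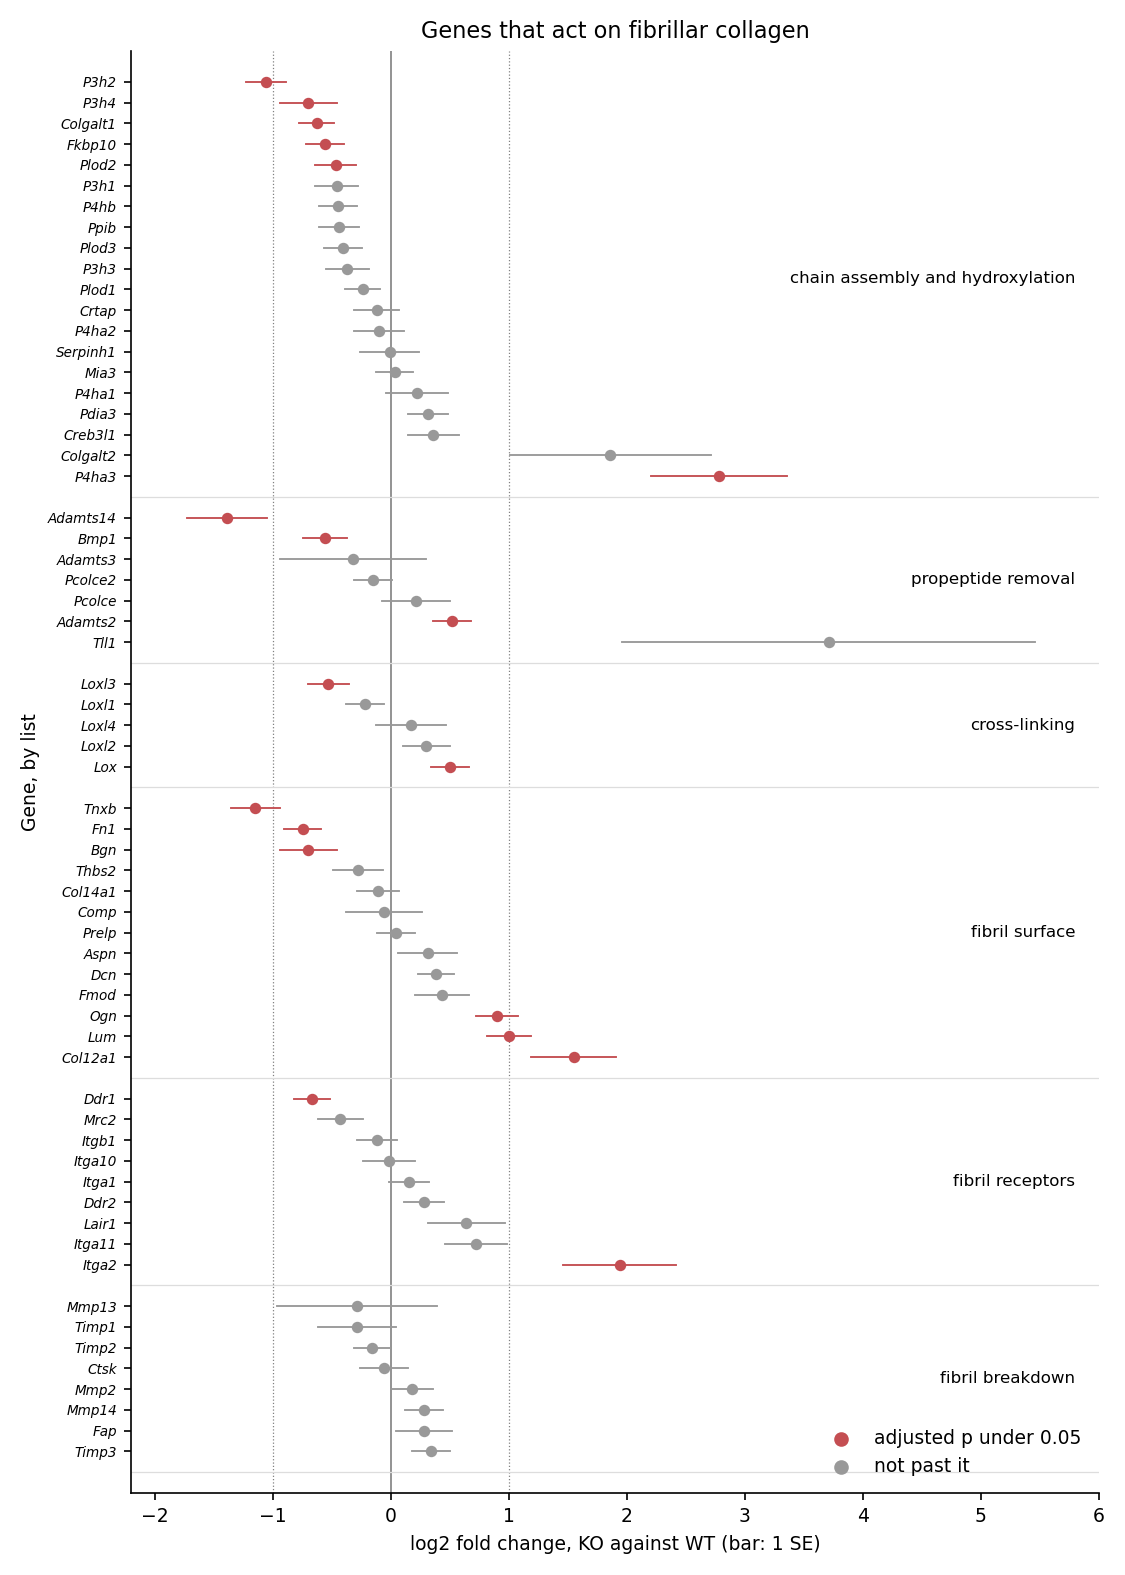
DESeq2 log2 fold changes (KO against WT, bars of 1 SE) of 62 genes that act on fibrillar collagen, in 6 lists. Red points passed an adjusted p of 0.05, with P4ha3, Itga2, Col12a1, Adamts14, Tnxb and P3h2 beyond a 2-fold change at the dotted lines.

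Several calls of the assembly genes depended on the test or model used, on the GC trend or on single libraries. In edgeR with its low-count filter, Plod2, P3h4, Bmp1, Adamts2, Lox, Loxl3, Bgn and Col12a1 did not pass. With the replicate number as a block, those genes except Col12a1 did not pass, nor did Fn1, Ddr1, Colgalt1, Fkbp10 and Itga2. With the GC trend taken out, P3h4 (log2 -0.45, adjusted p = 0.211), Fkbp10 (-0.35, 0.0982), Bmp1 (-0.36, 0.115), Lox (0.36, 0.124) and Bgn (-0.66, 0.0668) no longer passed. Without KO-2, P4ha3 (log2 1.99, adjusted p = 0.12), Adamts14 (-1.25, 0.0522), Itga2 (1.34, 0.208), Loxl3 (-0.52, 0.078), Bmp1 (-0.45, 0.248) and P3h4 (-0.36, 0.397) no longer passed. Without KO-1, the same held for Col12a1 (1.33, 0.0547), Adamts2 (0.41, 0.0547), Lox (0.34, 0.124), Bgn (-0.31, 0.239) and Plod2 (-0.31, 0.162). Leaving out 1 WT library also ended the calls of Plod2, Bgn, P3h4, Lox, Bmp1 and Loxl3, with adjusted p-values of up to 0.161, and P3h2, Tnxb, Lum, Ogn, Fn1, Ddr1, Colgalt1 and Fkbp10 passed with each library left out.

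Markers of the cells in the wall moved beside these genes. The summed normalised counts of 10 fibroblast markers were 53606 to 60664 in WT and 76745 and 69327 in KO. Of the 10 markers, 3 passed the threshold in DESeq2 and were higher, beside 5.71% of all genes, and edgeR called 2. Lum is among the 3 and is also in the fibril surface list. For 9 smooth muscle markers the sums were 912588 to 1072053 in WT and 873687 and 1028188 in KO. Of these 9, 0 passed in DESeq2, beside 10.4% of all genes, 4 had an unadjusted p under 0.05, and edgeR called 0. Tagln, Cnn1 and Smtn were lower in both KO libraries than in every WT library, and Myh11, Des and Synpo2 were higher. Among all genes the groups did not overlap, in either direction, for 34.3%. The sum does not show such opposite differences. Fibroblasts are a main source of Col1a1, Col1a2 and Col3a1 in the adventitia, and their part in the higher Col3a1 and Lum values was not tested.

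All 6 mesothelial markers were higher in KO, from sums of 288.3 to 533.3 in WT to 1109 and 2820. Macrophage sums were 7791 to 9425 in WT and 13988 and 15065 in KO. Endothelial sums were 11030 to 20191 in WT and 29272 and 28624 in KO, so both lists were higher in both KO libraries. Past the threshold and higher were 6 of 6 mesothelial, 6 of 7 macrophage and 4 of 6 endothelial markers, beside 5.71% of all genes. The edgeR test called fewer, 4 mesothelial, 3 macrophage and 3 endothelial markers. The adipocyte sum was 40934 in KO-2, 3921 in KO-1 and 2396 to 4038 in WT. The cardiac muscle sum was 27159 in KO-1, 4087 in KO-2 and 2946 to 4172 in WT. Ryr2, at 2291 to 2667 in WT and 1368 in KO-2, makes up most of the cardiac sum in each WT library. Tnnt2 (376 to 849 in WT, 4445 and 1975 in KO), Tnni3 (94.3 to 203 in WT, 1251 and 264 in KO) and Actc1 (74.5 to 223 in WT, 5951 and 270 in KO) were above every WT library in both KO libraries. The groups did not overlap, in either direction, for 34.3% of all genes. In KO-2, Myh6 (78.1 to 539 in WT, 113 in KO-2), Myl7 (31.4 to 159, 87.3) and Nppa (0 to 21.9, 8.6) lay within the WT range. Cartilage markers summed to 2045 to 2794 in WT and 1222 and 2732 in KO, bone markers to 1001 to 1375 in WT and 921.9 and 886.2 in KO, and Schwann cell markers to 2206 to 6099 in WT and 2813 and 5888 in KO, with 0 of 6 past the threshold in DESeq2, 2 with an unadjusted p under 0.05 and 0 past the threshold in edgeR. The part of these cells in the collagen values was not tested.

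**Figure D5:**
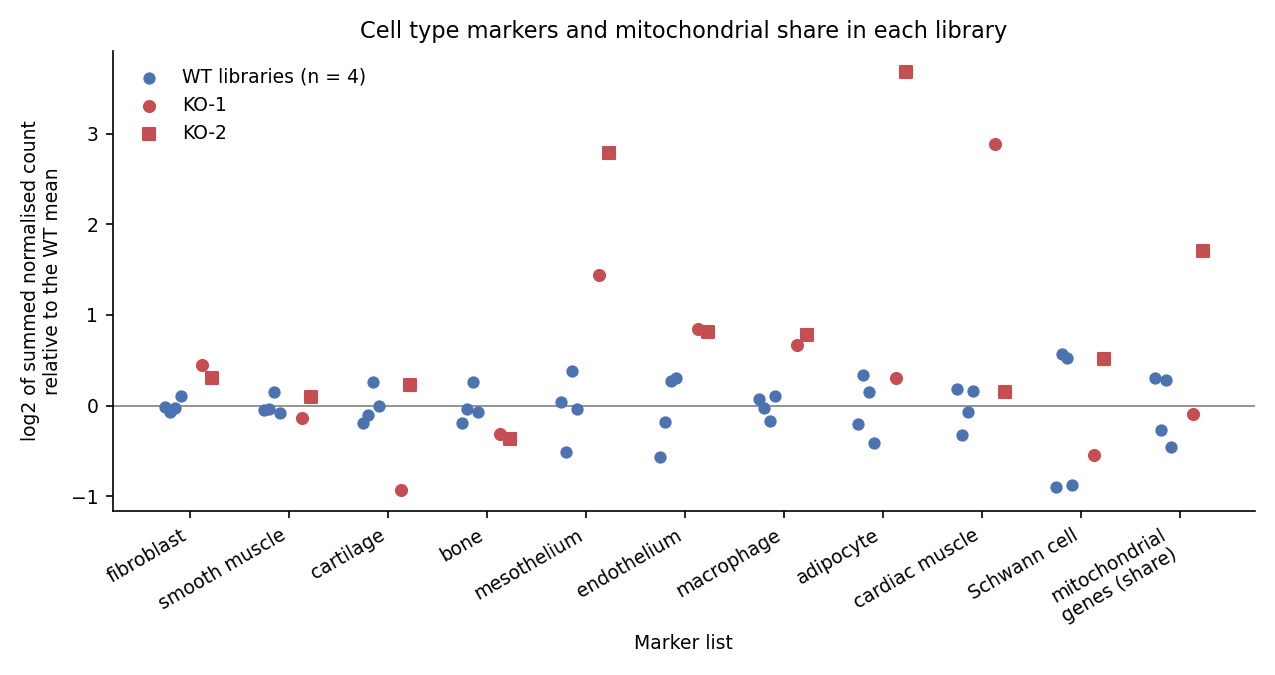
Summed normalised counts of each list of cell type markers, and the share of counts in mitochondrial genes, in each library as log2 relative to the WT mean. Fibroblast, mesothelial, endothelial and macrophage sums lie above every WT library in both KO libraries, the adipocyte sum and the mitochondrial share stand out in KO-2, and the cardiac sum stands out in KO-1.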

How the data were processed

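Bulk RNA-Seq was measured in 6 mouse thoracic aortas, 4 WT and 2 KO. The authors trimmed reads, aligned them to mm10 with HISAT2 and estimated expression with StringTie, per the labels and the study's methods. The deposited table gives gene-level estimated counts, whole numbers that were not scaled for depth and were used as they are. How StringTie coverage became whole numbers, and whether strand was used, is not given in the sources used here. Columns were matched to libraries by their codes (codes ending 1 to 4 as WT, 2 with another prefix as KO).

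DESeq2 1.42.0 (R 4.3.3; Wald test, group only) was fitted to all 52636 genes, with Benjamini-Hochberg adjusted p under 0.05 as the threshold and 2-fold as a second one. Alternatives were edgeR 4.0.16 (quasi-likelihood, with and without its low-count filter), other scalings, a per-library GC trend taken out, a low-count filter at a mean of 10, a test against a 2-fold change, the replicate number as a block, and each library left out. Positions and exon lengths came from GENCODE M21 on GRCm38, with 52489 gene identifiers matched. Mean log2 ratios were compared with exact permutation tests. The scripts were tested on simulated data. Medians cover genes averaging 10 or more normalised counts, and a pseudocount of 0.5 was added for single libraries. A group with 3 counts or fewer in each library was taken to be at the floor.

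Named were the 10 members, every assembly gene past both thresholds, up to 15 more past the adjusted p alone, the 5 genes most like Col1a1 and Col5a2, and markers at or near 0. The members and lists were chosen with earlier results of these data known.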

Additional observations from a re-analysis of the deposited data

Results flagged for a closer look

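Col24a1 was marked because 1 WT library stood far from the other 3: WT-1 had 12.1 normalised counts, while the others had 0 to 2, and the gap took up 0.835 of the range of the group. The rule was applied to 19 results and marks about 1 in 20 groups by chance. The gene had 11 raw counts or fewer in every library, and no fold is given for it.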

How the results depend on the processing

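The number of fibrillar collagen genes past the adjusted p was 2. It was 1 in edgeR and with total counts, 0 in edgeR without a low-count filter and in the test against a 2-fold change, and 0 to 3 when single libraries were left out (0 without KO-2, 1 without WT-1 or WT-2). The number past 2-fold as well was 1, and was 0 under both edgeR fits and the 2-fold test, and 0 to 1 with single libraries left out (0 without WT-1, WT-2, KO-1 or KO-2). The 19 assembly genes became 11 in both edgeR fits, 0 in the test against a 2-fold change and 13 to 21 with a library left out. Taking out the GC trend moved the summed level from 0.13 to 0.30, Col3a1/Col1a1 from -0.08 to -0.27, Col5a1/Col5a2 from 0.13 to 0.37 and Col5a2/Col1a2 from -0.38 to -0.55. Col1a2 changed sign, to 0.03 with the GC trend taken out and 0.01 without KO-2 (-0.26 to 0.01 over the single libraries left out). Leaving out single libraries gave 0.12 to 0.80 for Col1a1/Col1a2, -0.25 to 0.08 for Col3a1/Col1a1, 0.20 to 0.56 for Col3a1/Col1a2, -0.89 to -0.63 for Col5a2/Col3a1 and -1.0 to -0.44 for Col5a1/Col1a1, with the extremes when KO-1 or KO-2 was left out. The cause of these shifts was not tested. The log2 differences of Col5a2/Col3a1 and Col5a1/Col1a1 stayed negative in all alternatives run. Gene length cancels in these differences and the groups did not overlap, so neither length nor leaving out a single library could change the sign. Of the alternatives run, only taking out the GC trend could have done so, and it gave -0.84 and -0.74. The length of the longest coding transcript, and the GC trend for ratios, were chosen after seeing the data.

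With the replicate number as a block, 0 members passed either threshold and 7 assembly genes passed. Replicate numbers above 2 occur only in WT, so those libraries add nothing to the KO difference in this fit, and its power is low. Calls lost with the block therefore cannot be read as absence of a change. Deviations from the group means correlated by -0.109 for replicate 1 and 0.004 for replicate 2 over 15511 genes. With 2 KO libraries their deviations mirror each other, so these values cannot decide whether libraries of the same number share a litter or preparation day. With 1 KO library left, it was assumed to vary like the WT libraries. Depth limits Col2a1, Col11a1 and Col24a1 the most.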
